A study of Mus musculus with 36 samples.

Results

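The male line of lot 6 of a set of transformed mouse astrocytes was compared with the male lines of lots 7, 8, 11 and 12. Expression had been profiled by BRB-seq, in which barcoded samples are pooled early and transcripts are counted from their 3' ends, in 36 libraries of 10 lines, 1 F (female) and 1 M (male) line from each of 5 lots, and the Lot 6 M line accounted for 3 of these libraries. The other 4 M lines had 15 libraries together, 4 each for lots 7, 8 and 11 and 3 for lot 12. All lines carried the genotype Nf1-/- DNp53: the astrocytes lacked Nf1, the gene for the Ras-restraining protein neurofibromin, and had been transformed with a dominant-negative form of p53. They differed by litter of origin and sex, and all were grown in DMEM/F12 medium with fetal bovine serum, penicillin and streptomycin. No treatment, time or age is given by the labels. The labels call the lot a batch and each lot has 1 M line, so litter, line and batch cannot be told apart. Separate cultures behind the libraries of 1 line are not stated, so a p-value here measures the spread between libraries alone.

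Genes were chosen by their measured CPM in the M lines, that is, counts relative to the TMM-scaled library size. A gene was taken as outside the range when each of the 3 Lot 6 M libraries lay above, or each lay below, all 15 libraries of the other M lines. By this rule 244 of 11320 genes were chosen, 161 higher and 83 lower in Lot 6 M. These same CPM values are therefore given as a description, without a test. Tests were made on the Lot 6 F line, of the same lot, against the other 4 F lines, whose libraries had no part in the choice.

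p53 is a transcription factor that acts as a tetramer on paired half-sites in DNA, and its targets include inhibitors of the cell cycle, genes of cell death and genes that feed back on p53 itself. A dominant-negative p53 joins such tetramers and impairs their function. Glutathione transferases, peroxiredoxins and related enzymes remove peroxides and reactive compounds, and many of their genes are controlled through antioxidant response elements. In astrocytes, which supply neurons with glutathione precursors, this system is well developed.

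The Lot 6 M libraries held 6075624, 6398907 and 6888490 counts, and the other M libraries 4539982 to 7145432. At these depths 3 counts corresponded to 0.436 to 0.494 CPM of the library total in Lot 6 M. Pairs of Lot 6 M libraries differed by more than counting error, with chi-square values per degree of freedom between 6.56 and 14.7, and 0 of 24 pairs of libraries of the same M line were identical. Cytosolic ribosomal protein genes took 21.6 to 25.1% of the counts in Lot 6 M, against 18.3 to 24.8% in the other M lines. The markers of the labelled cell type were present in part: of 12 astrocyte genes, Aldh1l1, Aqp4, Fgfr3 and Gjb6 had no count in any Lot 6 M library. The list summed to 174 to 290 CPM in Lot 6 M and to 123 to 328 CPM in the other M lines. List sums here and below are CPM of the library total, without TMM scaling. Most of the sum in Lot 6 M came from 1 gene, Gja1, the astrocyte gap junction gene, on chromosome 10. It had 200, 169 and 259 CPM in Lot 6 M, against 104 to 288 CPM in the other M lines, and these ranges overlapped. Of 5 astrocyte genes that could be compared, the line mean was highest in Lot 6 M for 1, Gja1, and lowest for 0. Over all genes 18.3% were highest and 20.8% lowest. The median log2 difference of these 5 genes from the other M lines was -0.13. Of 13 microglia and macrophage markers 9 had no count in Lot 6 M, Aif1, Cx3cr1, Itgam, P2ry12 and Trem2 among them, and the list summed to 1.41 to 3.95 CPM in Lot 6 M and 2.13 to 10.1 CPM in the other M lines. In bulk RNA, fewer cells of a type and less RNA per cell cannot be told apart.

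Nf1 (chr11:79339693-79581612, GRCm38) had 2.7, 4.3 and 0.6 CPM in Lot 6 M, against 0 to 3.16 CPM with a median of 1.83 in the other M lines. All of these values were low and the groups overlapped. Counts at 3' ends do not check a deletion inside the gene. Trp53, which encodes p53 (chr11:69580359-69591873), had 294, 296 and 254 CPM in Lot 6 M, within the 190 to 449 CPM of the other M lines (median 259). Whether these counts came from the endogenous gene or from the dominant-negative construct was not tested.

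The 161 higher genes were 1.42% and the 83 lower genes 0.733% of the genes compared, 2.16% in all. With library totals in place of TMM scaling, the counts were 116 higher and 131 lower. Applied to each M line in turn, the same rule chose 213 genes for Lot 7 M, 240 for Lot 8 M, 75 for Lot 11 M and 720 for Lot 12 M. Lots 6 and 12, with 3 libraries each, had fewer libraries that must all clear the range than the others. Lot 6 M was thus not the line with the most genes outside the range. In median absolute log2 distance over the 6660 genes at a mean log2 CPM of 3 or more it lay 0.214 from Lot 8 M, 0.220 from Lot 11 M, 0.235 from Lot 7 M and 0.304 from Lot 12 M. With the weaker requirement that the line mean, taken over log2 CPM here and in every count of line means, lie beyond the 4 other line means, 2072 genes (18.3%) were higher and 2357 (20.8%) lower in Lot 6 M. Fitted as libraries by edgeR, whose threshold was an adjusted p of 0.05, 4.67% of genes were called higher and 2.9% lower, 7.57% in all, and 144 of the 161 and 72 of the 83 chosen genes were among them, a comparison from which nothing is read because it uses the values that made the choice. When each line was summed to 1 sample, edgeR's quasi-likelihood test with Benjamini-Hochberg adjustment called 0 genes, with 515 at an unadjusted p under 0.05, and DESeq2 called 10 higher and 11 lower. The choice loosened when a Lot 6 M library was left out: without replicate 1 it gave 264 higher and 150 lower genes, without replicate 2 it gave 252 and 193, and without replicate 3 it gave 384 and 243.

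The higher genes were mostly well expressed, with a median mean log2 CPM of 6.14, against 3.84 for the lower genes and 3.59 for all genes, as counts of 3' ends, which do not scale with transcript length. Differences are given on the log2 CPM scale, as Lot 6 M minus the mean of the other 4 M lines, each line weighted equally. The line SD is the SD of those 4 line means, and the gap is the distance from the Lot 6 M mean to the nearest of them. The absolute difference had a median of 0.66 for the higher and 1.15 for the lower genes, against 0.25 over all genes, and the median line SD was 0.17 for the higher and 0.29 for the lower genes. The gap was at least 1, a doubling, for 35 higher and 34 lower genes. The 35 include Blnk, Dusp2, Eda2r, Msx3, Scube3, Sema3b, Slc2a3, Tfpi, Wnt10a and Zfp354a. Those named passed the filter on low counts only through the Lot 6 M libraries, whereas all 83 lower genes passed it without them. Protein-coding genes made up 151 of the 161 and 79 of the 83.

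**Figure D1:**
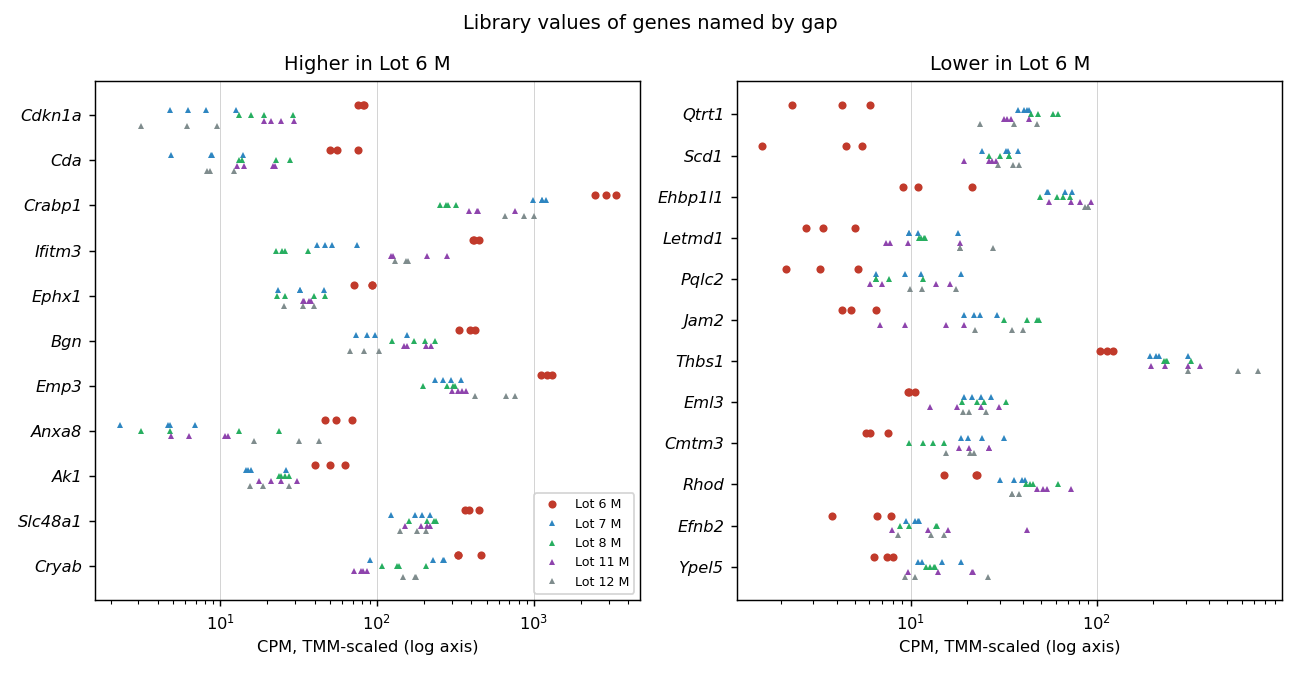
TMM-scaled CPM (log axis) of each M library for 11 higher and 12 lower genes named by gap; red circles are the 3 Lot 6 M libraries and the triangles the 15 libraries of the other M lines. The red circles lie beyond all triangles in each gene, as the rule requires, with Cdkn1a at 76.2 to 82.2 CPM in Lot 6 M against 3.14 to 29.6 CPM, and Qtrt1 at 2.3 to 6.1 CPM against 23.4 to 61.7 CPM.

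Among the genes named by gap at a mean log2 CPM of 3 or more, the widest gap on the higher side belonged to Cdkn1a (chr17:29090976-29100727), which makes p21, an inhibitor of cyclin-dependent kinases and the best known target of p53. It had 82.2, 81.1 and 76.2 CPM in the 3 Lot 6 M libraries, against 3.14 to 29.6 CPM in the other M lines with a median of 13.3. The Lot 6 M libraries lay close together and far above the rest. By line, Cdkn1a averaged 79.8 ± 3.17 CPM in Lot 6 M (SD, n = 3), against 23.6 ± 4.67 CPM in Lot 11 M, 19.3 ± 6.93 CPM in Lot 8 M, 7.92 ± 3.37 CPM in Lot 7 M (SD, n = 4 each) and 6.30 ± 3.23 CPM in Lot 12 M (SD, n = 3). The difference was 2.74 with a line SD of 0.95, and the gap to Lot 11 M was 1.77, or 3.40-fold. In the Lot 6 F line Cdkn1a had 30.9, 27 and 22.9 CPM, inside the 3.81 to 90.2 CPM of the other F lines (log2 fold change 0.63 ± 0.34, SE; adjusted p = 0.188, edgeR quasi-likelihood test with Benjamini-Hochberg adjustment over all genes, as for every adjusted p below).

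The sequence just before the annotated start of Cdkn1a (RefSeq, GRCm38.p6, chr17:29090901-29090974, plus strand) is shown because it holds the letters CATG, then 6 bases of any kind, then CATG again, the skeleton of a p53 half-site pair, marked in capitals.
Cdkn1a: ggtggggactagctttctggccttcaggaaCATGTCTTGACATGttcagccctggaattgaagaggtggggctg
The match lies 48 to 35 bases before the start. These letters were searched on both strands in windows of 250 bases before to 50 bases after each gene's start. They occurred in 234 of 32851 windows, 0.712%, and in 225 of 27025 genes with a window, 0.833%. Of the 13 p53 targets with a window whose line mean was highest in Lot 6 M, 1 held it, Cdkn1a, and of the 6 other listed targets 0 did. The match is a description of letters and not of binding.

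Many genes known as p53 targets had their highest line mean in Lot 6 M. In a list of 25 such genes, Cdkn1a included, 24 could be compared. The line mean was the highest of the 5 M lines for 15 and the lowest for 1, the cell death gene Bbc3. Some led by little, with gaps of 0.04 for Ckap2 and Polk and 0.05 for Tnfrsf10b. The list was made with earlier results of these data known and holds chosen genes, so its counts are a description only. This compares with 18.3% of all genes highest and 20.8% lowest. The median difference of the list was 0.54, against -0.02 over all genes, and 20 of the 24 genes lay above 0. Eda2r, Gdf15 and Phlda3 passed the filter on low counts only through the Lot 6 M libraries, and among the other 21 genes 12 line means were highest and 1 lowest, with a median difference of 0.45. In the other lines the list's members were highest for 1 gene and lowest for 6 in Lot 7 M, for 2 and 8 in Lot 8 M, for 5 and 1 in Lot 11 M, and for 1 and 8 in Lot 12 M.

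For 5 of the targets every Lot 6 M library lay above the range, namely Cdkn1a, Ccng1, Bax, Gtse1 and Eda2r, and for 0 below. Without Eda2r, which passed the filter only through Lot 6 M, they were 4. By the same rule 1.42% of all genes were higher and 0.733% lower. Ccng1 (chr11:40748552-40755311), the cyclin G1 gene, had 89.3, 109 and 80.7 CPM in Lot 6 M, against 14.8 to 67.1 CPM with a median of 45.8 in the other M lines. Gtse1 (chr15:85859745-85876573), whose product binds p53 in the G2 phase and restrains it, had 40.9, 35.0 and 37.3 CPM, against 16.9 to 32.8 CPM. Both groups of values were separate, Gtse1 by a small margin between single libraries. The death effector gene Bax had 61.3, 68.3 and 58.1 CPM in Lot 6 M, against 31.4 to 55.2 CPM in the other M lines. Eda2r, a receptor of the tumour necrosis factor family, was near the detection floor everywhere, with 1.79, 3.24 and 2.16 CPM in Lot 6 M and 0 to 1.30 CPM in the other M lines. Not all targets were high. Fas, Bbc3, Rrm2b and Btg2 had differences of -0.73, -0.65, -0.14 and -0.12, at Lot 6 M means of 0.86 to 5.47 CPM. Perp, a gene of cell death and cell junctions, differed by 1.74 with a line SD of 2.09. Its 28.4, 57.0 and 29.3 CPM lay inside the 0.673 to 62.9 CPM of the other M lines. Mdm2, the p53 ubiquitin ligase, had its highest line mean in Lot 6 M, but by a gap of only 0.10. It differed by 0.28 with a line SD of 0.14, and single libraries overlapped.

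In the Lot 6 F line the p53 targets that passed the test were divided between the directions. Of 23 targets tested by edgeR against the other F lines, 3 rose (Gdf15, Gtse1 and Polk) and 4 fell (Mdm2, Perp, Plk2 and Pmaip1), against 14.9% of all genes higher and 12.7% lower, 27.6% in all. Gtse1 rose by 0.68 ± 0.21 (SE; adjusted p = 0.0169). Gdf15, a secreted stress factor, rose by 3.31 ± 0.77 (adjusted p = 0.00188). Perp fell by 2.04 ± 0.28 on the log2 scale (adjusted p = 3.63e-06) and Mdm2 fell by 0.55 ± 0.16 (adjusted p = 0.0101). Ccng1 did not pass, at -0.26 ± 0.26 (adjusted p = 0.497). The difference between both Lot 6 lines in these effects was not tested.

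**Figure D2:**
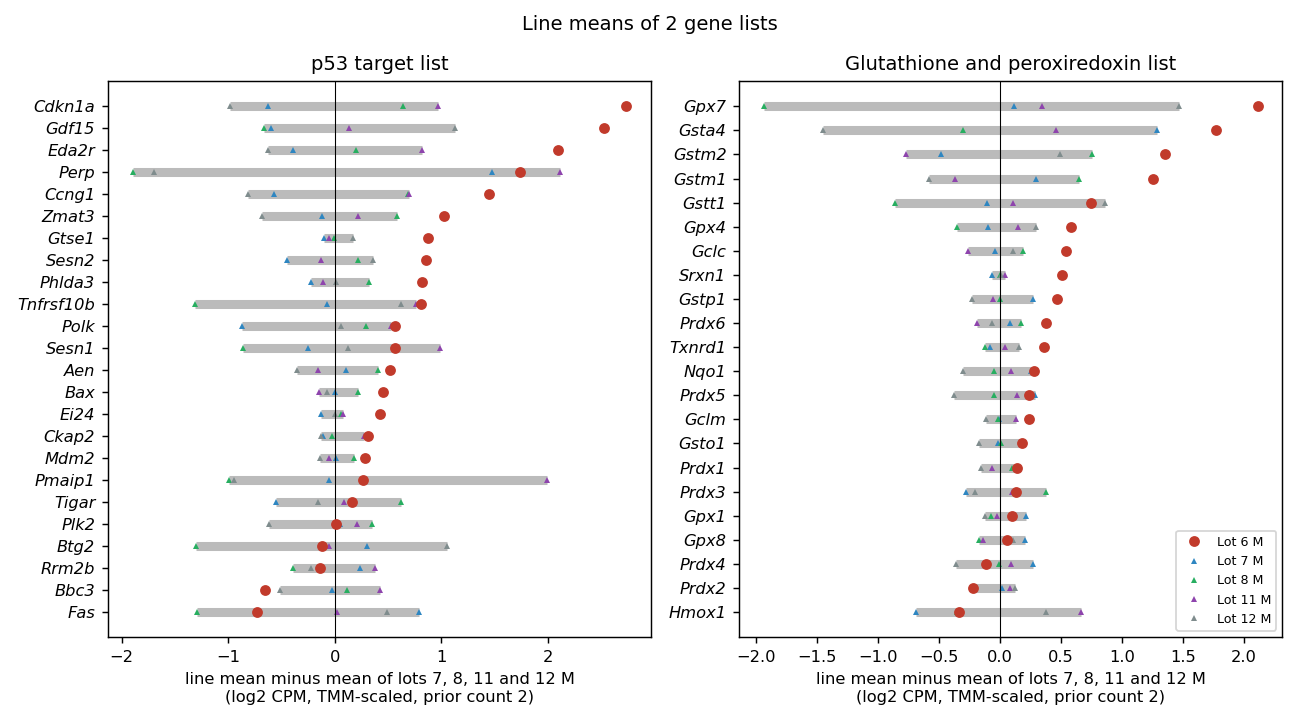
Line means of the p53 targets and of the glutathione and peroxiredoxin genes in the M lines, as log2 CPM relative to the mean of lots 7, 8, 11 and 12 M; red points are Lot 6 M and the grey bars the range of the 4 other lines. Lot 6 M lies beyond the upper end of the bar for 15 of 24 p53 targets and 14 of 22 glutathione and peroxiredoxin genes.

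Genes of glutathione conjugation and peroxide removal were a further list with many members at the top of the M lines. Of 22 listed genes compared, Lot 6 M had the highest line mean for 14 and the lowest for 1 (Prdx2), against 18.3% and 20.8% of all genes. The list's median difference was 0.32, against -0.02 over all genes. For the other lines the counts were 4 highest and 3 lowest in Lot 7 M, 1 and 5 in Lot 8 M, 1 and 3 in Lot 11 M, and 2 and 10 in Lot 12 M. Some of these ranks were near ties, with gaps of 0.002 for Prdx2, 0.005 for Gsto1 and 0.03 for Nqo1. In mean CPM, Prdx2 stood above Lot 8 M (496 against 495 CPM) and Nqo1 below Lot 7 M (18.6 against 20.2 CPM). Most of these differences were small against the spread of libraries, and every Lot 6 M library was outside the range for only 1 member. That member, Prdx6 (chr1:161240112-161251219), a peroxiredoxin that also acts on phospholipids, had 1008, 958 and 875 CPM in Lot 6 M, against 600 to 867 CPM with a median of 746 in the other M lines, a difference of 0.38 with a line SD of 0.16.

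Larger differences with overlapping libraries were seen for the glutathione transferase Gsta4, with 63.6, 48.5 and 65.4 CPM in Lot 6 M against 3.49 to 56.1 CPM, and for the endoplasmic reticulum peroxidase Gpx7, with 12.0, 17.1 and 16.3 CPM against 0.173 to 13.8 CPM in the other M lines. Gstm1 had 424, 333 and 515 CPM in Lot 6 M and 97.1 to 349 CPM in the other M lines, but has near-identical copies whose reads the authors' counting may have split. Srxn1, sulfiredoxin, which restores oxidised peroxiredoxins, had 28.2, 16.6 and 22.9 CPM, against 10.7 to 21.4 CPM. For these genes single libraries overlapped while the Lot 6 M mean was the highest.

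The promoters of 4 listed genes with a highest line mean held the core letters of the antioxidant response element, TGACNNNGC, within the same window, namely Gclm, Prdx1, Srxn1 and Txnrd1. That was 4 of 11 such genes with a window, against 0 of the 7 other listed genes and 12.4% of all windows (4071 of 32851). Short stretches around the 3 matches before a start are given from RefSeq GRCm38.p6 on the plus strand, to show where the letters stand; capitals mark the match, which reads on the opposite strand. Gclm lies at chr3:122245403-122245451, Prdx1 at chr4:116685446-116685494 and Txnrd1 at chr10:82859094-82859142.
Gclm: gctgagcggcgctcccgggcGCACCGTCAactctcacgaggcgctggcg
Prdx1: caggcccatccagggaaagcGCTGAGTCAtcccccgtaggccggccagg
Txnrd1: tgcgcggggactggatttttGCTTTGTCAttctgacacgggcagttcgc
Gclm, the modifier subunit of the enzyme that makes the glutathione precursor, had 65.6, 59.1 and 74.9 CPM in Lot 6 M, against 42.4 to 77.3 CPM in the other M lines. Txnrd1, cytosolic thioredoxin reductase, had 228, 260 and 306 CPM, against 166 to 299 CPM. Prdx1 had 1777, 1961 and 1729 CPM, against 1369 to 1967 CPM. For each of these genes the ranges overlapped. Among the genes chosen as outside the range, the letters occurred in 10 of 115 higher genes with a window (8.70%) and 10 of 55 lower genes (18.2%).

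By edgeR's test in Lot 6 F, of 23 glutathione and peroxiredoxin genes 3 rose (Gpx1, Gstm1 and Gstm2) and 6 fell (Gpx3, Gsto1, Nqo1, Prdx2, Prdx6 and Txnrd1), against 14.9% and 12.7% of all genes. Prdx6 had 235, 217 and 219 CPM in Lot 6 F, against 499 to 1123 CPM in the other F lines, so that every Lot 6 F library lay below the range, where every Lot 6 M library lay above that of the M lines. The fall in Lot 6 F was 1.63 ± 0.08 on the log2 scale (adjusted p = 6.73e-14). Gstm1 rose by 2.06 ± 0.17 (adjusted p = 8.34e-10).

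Enzymes that act on foreign or reactive compounds outside this list were also among the chosen higher genes. Ephx1 (chr1:180976210-181020904), microsomal epoxide hydrolase, had 93.4, 71.2 and 92.8 CPM in Lot 6 M, against 22.9 to 46.7 CPM with a median of 33.8 in the other M lines. Its 4 other line means lay close together, with a line SD of 0.065, below a difference of 1.35. In Lot 6 F the gene differed by -0.07 ± 0.20 (adjusted p = 0.834), with a line mean of 40.1 ± 3.45 CPM (SD, n = 3). A further 4 enzymes were picked after their values were seen. Adh7, an alcohol dehydrogenase that acts on retinol, had 56.6, 38.1 and 36.6 CPM in Lot 6 M and 0.411 to 20.6 CPM in the other M lines. Cbr2, a carbonyl reductase, had 116, 90.1 and 175 CPM and 12.0 to 70.3 CPM. Gsta1, a glutathione transferase with closely similar copies, had 20.4, 21.5 and 18 CPM and 0.305 to 13.6 CPM. Glo1, glyoxalase 1, had 290, 285 and 251 CPM and 110 to 220 CPM. All 4 were separate between the groups, as chosen. In Lot 6 F they went different ways: Adh7 fell by 2.87 ± 0.65 (adjusted p = 0.00158) and Gsta1 fell by 3.21 ± 0.70 (adjusted p = 0.00109), while Cbr2 rose by 2.00 ± 0.24 (adjusted p = 7.27e-07) and Glo1 rose by 0.89 ± 0.09 (adjusted p = 4.70e-08).

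Cda (chr4:138338424-138367992), cytidine deaminase of pyrimidine salvage, had 49.8, 55.8 and 75.5 CPM in Lot 6 M, against 4.85 to 28.0 CPM with a median of 13.1 in the other M lines. It was close to the detection floor in Lot 6 F, at 0.80, 0.89 and 1.46 CPM. Against the mean of the other F lines this was a fall of 2.73 ± 0.53 on the log2 scale (adjusted p = 0.000362). Those lines ranged from 1.38 to 37.8 CPM, and Lot 7 F, at 1.38 to 3.22 CPM, overlapped Lot 6 F. Of 14 genes of pyrimidine salvage and breakdown compared, the line mean was highest in Lot 6 M for 6 (Cda, Upp1, Nt5e, Uck2, Umps and Uprt) and lowest for 2 (Cad and Dck), against 18.3% and 20.8% of all genes, and only Cda had every library outside. Upp1, uridine phosphorylase, had 53.8, 47.8 and 64.0 CPM in Lot 6 M, overlapping the 2.60 to 61.0 CPM of the other M lines. Of 15 genes of this list tested in Lot 6 F, 0 rose and 4 fell (Cda, Nt5c, Uck2 and Upp1), against 14.9% and 12.7% of all genes.

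Crabp1 (chr9:54764748-54773110), which encodes a cytosolic binding protein for retinoic acid, had 2900, 3329 and 2462 CPM in Lot 6 M, against 252 to 1198 CPM with a median of 660 in the other M lines. The Lot 6 F line showed the reverse order, with 90.7, 119 and 83.0 CPM against 209 to 2218 CPM in the other F lines, a fall of 2.96 ± 0.27 on the log2 scale (adjusted p = 6.73e-09). Of 11 retinoid genes compared, Crabp1 was the only one with a highest line mean in Lot 6 M, and 2 had the lowest, against 18.3% and 20.8% of all genes.

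Ifitm3 (chr7:141009586-141010770), an interferon-induced membrane protein that hinders entry of viruses, had 445, 419 and 411 CPM in Lot 6 M, against 22.7 to 278 CPM with a median of 74.1 in the other M lines. It was outside the range in the same direction in Lot 6 F, where it had 2391, 2850 and 2050 CPM, against 46.2 to 504 CPM in the other F lines (log2 fold change 3.63 ± 0.14, adjusted p = 1.09e-15). Its neighbour in the family, Ifitm1, had 12.3, 13.5 and 21.0 CPM in Lot 6 M, against 0.135 to 7.95 CPM, and 39.1, 58.9 and 38.4 CPM in Lot 6 F, against 0 to 8.22 CPM (6.48 ± 0.34, adjusted p = 3.12e-13). Reads of the similar members of this family may be divided uncertainly between them. The wider interferon response list did not follow in the M line: of 11 genes compared, 2 had the highest and 5 the lowest line mean in Lot 6 M and 0 had every library outside, against 18.3% highest and 20.8% lowest over all genes. In Lot 6 F 14 of 16 rose and 0 fell, against 14.9% and 12.7% of all genes.

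Genes of the cell surface and matrix were found on both sides. Bgn (chrX:73483602-73495933), the proteoglycan biglycan, had 391, 335 and 421 CPM in Lot 6 M, against 67.5 to 234 CPM with a median of 148 in the other M lines. Thbs1 (chr2:118111876-118127133), the adhesive matrix protein thrombospondin-1, had 122, 113 and 104 CPM in Lot 6 M, against 192 to 730 CPM with a median of 237. Each gene was separate between the groups, in opposite directions. They were the only members of a list of 27 compared fibrillar matrix genes with every library outside, and Lot 6 M had the highest line mean for 3 of that list and the lowest for 9, against 18.3% and 20.8% of all genes. In CPM of the library total, the list's summed level overlapped, at 3639 to 4296 CPM in Lot 6 M and 2406 to 9068 CPM in the other M lines. So did that of fibroblast and meningeal markers, at 663 to 794 CPM and 146 to 1014 CPM.

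Among other matrix and adhesion genes, Nid1, the basement membrane linker nidogen-1, had 16.8, 14.8 and 21.9 CPM in Lot 6 M, against 0.613 to 12.6 CPM in the other M lines, and was the only one of 13 basement membrane genes with every library outside. Lgals3 (chr14:47367751-47386160), the sugar-binding galectin-3, had 1837, 1732 and 1884 CPM in Lot 6 M. The other M lines ranged from 36.3 to 1626 CPM with a median of 668, so the gap was 0.49 beside a line SD of 2.18. For Lgals3, Lot 6 M thus lay at the edge of a set of lines that differed widely from each other. It was near the low end in Lot 6 F, at 47.2, 53.7 and 38.1 CPM, a fall of 3.34 ± 0.40 (adjusted p = 6.75e-07). Integrins and other adhesion receptors had 2 of 15 line means highest and 7 lowest in Lot 6 M, against the same shares, with 0 genes outside by every library. Against the mean of the other F lines, Bgn fell in Lot 6 F by 1.33 ± 0.32 (adjusted p = 0.00264), but its 29.9 CPM there lay above the 22.9 CPM of Lot 7 F. Nid1 rose by 2.59 ± 0.63 (adjusted p = 0.00315), yet with 2.93 CPM in Lot 6 F it lay below the 3.91 CPM of Lot 12 F.

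The remaining higher genes named by gap were of mixed function. Emp3, a small membrane protein of the PMP22 family, had 1110, 1316 and 1218 CPM in Lot 6 M and 198 to 758 CPM in the other M lines, with a median of 316. Anxa8, a membrane-binding annexin, had 69.5, 54.8 and 46.7 CPM and 2.29 to 42.8 CPM, so its lowest Lot 6 M library lay just above the highest of the others. Ak1, adenylate kinase 1, had 62.7, 50.2 and 40.0 CPM in Lot 6 M and 14.7 to 31.0 CPM in the other M lines. Slc48a1, a haem transporter (chr15:97778520-97792692), had 447, 366 and 386 CPM in Lot 6 M and 123 to 239 CPM in the other M lines. Cryab, the small heat-shock protein alpha-B-crystallin of astrocytes and muscle, had 330, 463 and 328 CPM and 71.4 to 268 CPM. Slc48a1 overlaps Hdac7 and Cryab overlaps Hspb2 in the annotation, so reads in the overlaps cannot be assigned with certainty.

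Several genes of low level had wide relative differences; they were picked after their values were seen. Of them Tfpi, Scube3 and Msx3 passed the filter on low counts only through the Lot 6 M libraries. Tfpi (chr2:84432855-84476775), the inhibitor of the tissue factor pathway of clotting, had 133 counts in Lot 6 M, or 7.15, 8.19 and 6.48 CPM, against 11 counts in all 15 other M libraries, of which 8 had 0. Scube3, a secreted signalling protein, had 5.18, 6.83 and 8.79 CPM in Lot 6 M and at most 2.33 CPM in the other M lines. Msx3, a homeobox gene of the dorsal neural tube in mice, had 5.00, 6.15 and 4.32 CPM and at most 0.925 CPM. The water channel gene Aqp5 (chr15:99590782-99594829) had 31.3, 33.5 and 25.1 CPM in Lot 6 M, against 0.404 to 14.6 CPM in the other M lines. Artn, a ligand of the GDNF family, had 24.1, 30.4 and 21.3 CPM, against 1.11 to 15.9 CPM.

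On the lower side, 3 of the genes named by gap, at a mean log2 CPM of 3 or more, had gaps over 2. Qtrt1 (chr9:21411837-21420274), the catalytic subunit of the enzyme that places queuine in transfer RNA, had 6.1, 4.3 and 2.3 CPM in Lot 6 M, against 23.4 to 61.7 CPM with a median of 42.0 in the other M lines, a difference of -3.25 with a line SD of 0.28. Scd1 (chr19:44394455-44407879), the desaturase that makes oleate from stearate, had 4.5, 5.5 and 1.6 CPM in Lot 6 M, against 19.3 to 37.9 CPM with a median of 30.3, a difference of -3.02 with a line SD of 0.19. Ehbp1l1 (chr19:5707376-5726317), an adaptor of membrane traffic from the recycling endosome, had 10.9, 21.3 and 9.1 CPM, against 49.4 to 92.7 CPM with a median of 71.5. In each of these genes the 4 other M lines lay close together and Lot 6 M stood several-fold below them.

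All of these 3 genes fell in Lot 6 F too. Scd1 had 11.0, 5.8 and 9.5 CPM in Lot 6 F, against 15.8 to 43.8 CPM in the other F lines, a fall of 1.64 ± 0.25 on the log2 scale (adjusted p = 2.16e-05). Ehbp1l1 fell by 2.63 ± 0.25 (adjusted p = 1.10e-08) against the mean of the other F lines, with 6.63 ± 3.57 CPM in Lot 6 F (SD, n = 3), but Lot 11 F was about as low, at 6.44 ± 2.20 CPM (SD, n = 4), and the other 3 F lines ranged from 42.3 to 134 CPM. Qtrt1 fell by 0.48 ± 0.15 (adjusted p = 0.0147). The fall of Qtrt1 in the F line was thus small, at 27.9 ± 1.59 CPM (SD, n = 3) against a range of 25.7 to 63.7 CPM over the other F libraries.

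The other lower genes named by gap had differences of -2.20 to -0.91 on the log2 scale. The junctional adhesion gene Jam2 had 4.3, 6.5 and 4.8 CPM in Lot 6 M and 6.84 to 48.6 CPM in the other M lines. Letmd1, a mitochondrial membrane protein, had 3.4, 2.7 and 5.0 CPM and 7.37 to 27.7 CPM, and Pqlc2, a lysosomal exporter of basic amino acids, had 2.1, 3.2 and 5.2 CPM and 6.03 to 18.6 CPM. The ligand gene Efnb2, ephrin-B2, touched the boundary, with 7.9, 3.8 and 6.6 CPM in Lot 6 M and 7.97 to 42.2 CPM in the other M lines. Thbs1 was described above, and Cmtm3, Eml3, Rhod and Ypel5 complete the set, with Lot 6 M means below the other line means by gaps of 0.91, 0.98, 0.86 and 0.80. From the lists came Hmga1, an architectural chromatin protein, with 45.6, 50.2 and 45.4 CPM in Lot 6 M and 64.2 to 203 CPM in the other M lines. Hmga1 overlaps another gene on the opposite strand, and whether the counting used strand is not given in the sources used here. Against the mean of the other F lines Hmga1 fell in Lot 6 F by 2.17 ± 0.27 (adjusted p = 1.31e-06). Its 12.7 to 25.1 CPM in Lot 6 F overlapped the 15.9 to 45.5 CPM of Lot 7 F, while Lot 8 F averaged 295 CPM.

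Genes of the interleukin-6 and STAT3 pathway, of NF-kB and of the cell cycle gave few members. Of 13 interleukin-6 and STAT3 components, Lot 6 M had the highest line mean for 2 and the lowest for 3, where 18.3% of all genes were highest and 20.8% lowest; these shares apply to each count in this paragraph. Jak2, a kinase of that pathway, lay below the range with 0.715, 0 and 0.432 CPM in Lot 6 M against 0.774 to 2.86 CPM in the other M lines, values around the detection floor. Of 19 NF-kB targets, 1 was highest and 4 were lowest, and 0 lay outside by every library. Of 30 genes of S phase and mitosis, 5 were highest, 2 lowest and 0 outside by every library, beside the high level of Cdkn1a. Contractile and actin-binding genes had 0 highest and 2 lowest of 21. Acta2, smooth muscle actin, had 4067, 4555 and 5399 CPM in Lot 6 M, within the 1117 to 12010 CPM of the other M lines. Ribosomal protein genes, whose reads can be shared with pseudogenes, had 22 of 77 line means highest in Lot 6 M, while 48 were highest in Lot 8 M.

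The chosen higher genes were unevenly spread over the chromosomes. Chromosome 10 held 36 of them among 535 genes compared (6.73%) and chromosome 15 held 21 among 437 (4.81%), against 1.42% over all genes, and these chromosomes together held 35.4% of the 161. Chromosome 10 had 0 lower genes and chromosome 15 had 3. Chromosome 8 had 0 higher and 13 lower among 629 genes (2.07%), and chromosome 19 had 10 lower among 392 (2.55%), against 0.733% over all genes.

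The shift on chromosome 10 was broad and shallow. Over its 326 genes at a mean log2 CPM of 3 or more, the median difference was 0.32, or 1.25-fold, and 290 genes (89.0%) lay above 0, against a median of 0.02 and 53.1% above 0 over all 6660 such genes. In 10 equal groups of genes along the chromosome the median lay between 0.29 and 0.39. Chromosome 15 had a median of 0.30, with 233 of 282 genes (82.6%) above 0 and medians of 0.14 to 0.40 along its length. Chromosome 8 had a median of -0.19, with 96 of 379 genes (25.3%) above 0 and medians of -0.25 to -0.09. All 10 group medians of each chromosome lay on the same side of 0, but not equally far from it. Group 10 of chromosome 8 stood at -0.09, with 15 of 37 genes above 0, as did chromosome 5 as a whole, at -0.09. Group 4 of chromosome 15 stood at 0.14, with 19 of 28 genes above 0, near the 0.13 of chromosome 14 as a whole. Each line set against its own 4 others gave medians on chromosome 10 of -0.15 for Lot 7 M, -0.22 for Lot 8 M, -0.08 for Lot 11 M and 0.11 for Lot 12 M. On chromosome 15 they were -0.27, -0.15, -0.08 and 0.22 in the same order, and on chromosome 8 they were -0.13, -0.02, 0.16 and 0.24. These comparisons share libraries. DNA copy number was not measured, and its part in the shift was not tested.

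**Figure D3:**
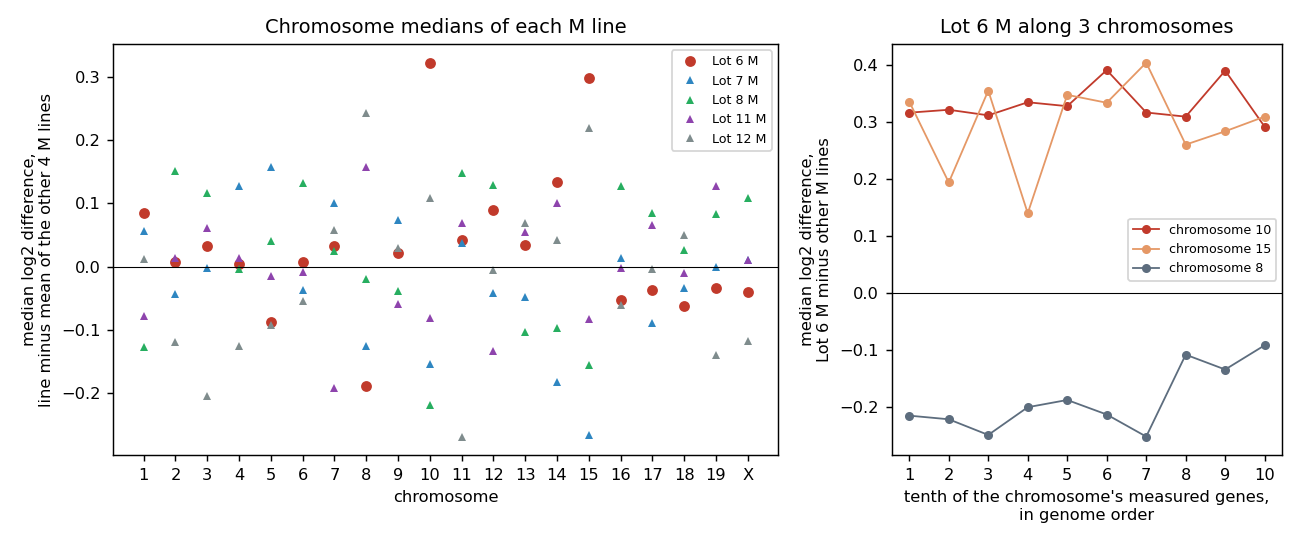
Left, median log2 CPM difference of each chromosome's genes for each M line against its other 4 lines; right, the Lot 6 M medians in 10 equal groups of genes along chromosomes 10, 15 and 8. Lot 6 M stands at 0.32 on chromosome 10, 0.30 on chromosome 15 and -0.19 on chromosome 8, and the 10 groups of chromosome 10 lie between 0.29 and 0.39.

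The chosen genes of chromosome 10 differed by 0.27 to 1.09, and 0 of them had a gap over 1; the examples given here were picked after their values were seen. Pttg1ip (chr10:77581720-77598732), which carries securin into the nucleus, had 479, 485 and 482 CPM in Lot 6 M, against 213 to 371 CPM with a median of 273 in the other M lines, a difference of 0.81 with a line SD of 0.05. The splicing genes Lsm7, with 811, 835 and 741 CPM in Lot 6 M against 361 to 607 CPM, Snrpd3, with 549, 528 and 474 CPM against 289 to 424 CPM, and Cdc40, with 68.1, 72.9 and 67.1 CPM against 26.3 to 49.4 CPM in the other M lines, followed the same pattern. On chromosome 15, Atxn10 had 500, 509 and 440 CPM in Lot 6 M, against 222 to 334 CPM. All of these were separate between the groups with modest differences. Off chromosomes 10 and 15, 13 of 19 p53 targets had the highest line mean in Lot 6 M with a median difference of 0.52. These 13 include Eda2r, Gdf15 and Phlda3, which passed the filter on low counts only through the Lot 6 M libraries. Of 19 glutathione and peroxiredoxin genes off these chromosomes, 12 had the highest line mean, with a median difference of 0.24. Over all genes and chromosomes 18.3% were highest.

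In Lot 6 F the chromosome 10 genes did not stand high. Their median difference from the other F lines was -0.15. Of the 36 chosen genes of this chromosome, 9 lay above 0 and 27 below, and by edgeR 1 rose and 12 fell, against 14.2% and 13.2% of the genes tested in both sexes. Pttg1ip fell by 0.36 ± 0.10 (adjusted p = 0.0101) and Lsm7 fell by 0.44 ± 0.10 (adjusted p = 0.00171). Chromosome 15 was high in Lot 6 F as well, with a median of 0.25. The Lot 6 F line had its own shifts, with a median of -0.75 on chromosome 14 and 0.36 on chromosome 2.

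The chosen genes as a whole were then followed in Lot 6 F, where the other F lines give an independent set of libraries. Of the 155 higher genes that could be tested there, 35 rose (22.6%) and 34 fell (21.9%) by edgeR, against 14.2% and 13.2% of the 11060 genes tested in both sexes. The median F difference was -0.09, with 65 genes above and 90 below 0. Of 81 lower genes tested, 6 rose (7.41%) and 17 fell (21.0%). Their median F difference was -0.05, with 38 genes above and 43 below 0. Thus the higher genes of Lot 6 M passed the test in Lot 6 F about equally often in both directions. Among the lower genes that passed, more fell than rose, but the lower genes as a set lay on both sides of 0. The share that fell was close to that of the higher genes, 21.9%.

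With the stricter rule of every library outside, 16 genes were higher in both Lot 6 lines, 9.94% of the 161 and 2.68% of the 598 genes outside on the high side in Lot 6 F among those tested in both. Over all genes tested in the F lines, 5.78% were higher and 3.82% lower in Lot 6 F by this rule, 9.6% in all. On the low side 5 were shared, 6.02% of the 83 and 1.13% of 444, and with library totals in place of TMM scaling 11 were. In opposite directions, 7 genes were high in Lot 6 M and low in Lot 6 F, and 3 were low in Lot 6 M and high in Lot 6 F. The shared genes included Ifitm1, Ifitm3, Ak1, Cbr2, Glrx, Glo1, Gtse1, Lamtor3 and Atxn10 on the high side and Scd1, Flt1 and Nt5dc2 on the low side. Lamtor3, a lysosomal scaffold of MAP kinase and mTOR signalling, had 55.6, 52.2 and 60.1 CPM in Lot 6 M, against 11.9 to 38.1 CPM, and rose in Lot 6 F by 1.71 ± 0.15 (adjusted p = 3.97e-09). Flt1, a receptor of vascular endothelial growth factor, had 3.39, 1.71 and 3.46 CPM in Lot 6 M, against 3.59 to 21.7 CPM, and fell in Lot 6 F by 2.32 ± 0.35 (adjusted p = 1.50e-05). The defining endothelial markers Cdh5, Cldn5, Emcn, Kdr, Pecam1 and Tek had no count in Lot 6 M.

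Genes of opposite direction included Crabp1, Prdx6, Sdc1 and Gnl3, high in Lot 6 M and low in Lot 6 F, and Cst3 and Casc4, low in Lot 6 M and high in Lot 6 F. Cst3, the secreted protease inhibitor cystatin C, had 729, 721 and 685 CPM in Lot 6 M, against 766 to 1346 CPM in the other M lines. In Lot 6 F it had 5250, 5494 and 5025 CPM, a rise of 2.03 ± 0.08 (adjusted p = 1.11e-15). Sdc1, the surface proteoglycan syndecan-1, had 52.3, 53.8 and 56.9 CPM in Lot 6 M, against 30.2 to 48.7 CPM, and fell in Lot 6 F by 0.90 ± 0.17 (adjusted p = 0.000176). Of 11 higher genes named by gap, 3 rose in Lot 6 F (Ifitm3, Emp3 and Ak1), 4 fell (Cda, Crabp1, Bgn and Anxa8) and 4 did not pass. These tests set Lot 6 F against a mean of 4 lines: for Bgn, Emp3 and, among the lower genes, Cmtm3, the line mean of Lot 6 F was not the outermost of the F lines. Of the 12 lower genes, 1 rose (Efnb2), 4 fell (Qtrt1, Scd1, Ehbp1l1 and Cmtm3) and 7 did not pass. Over all genes tested in the F lines 14.9% rose and 12.7% fell, 27.6% in all.

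**Figure D4:**
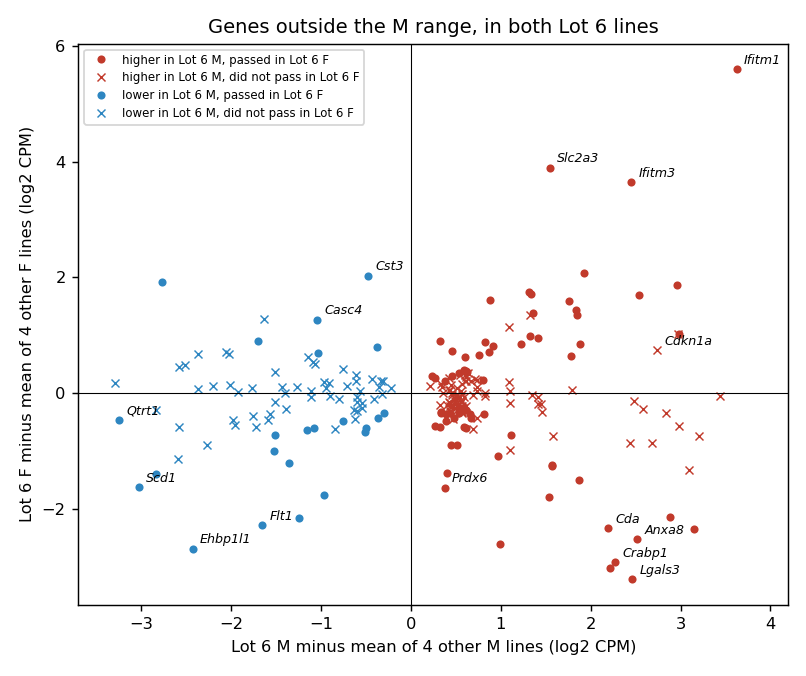
Log2 CPM difference of the chosen genes in Lot 6 M from the other M lines (horizontal) against that in Lot 6 F from the other F lines (vertical); dots passed edgeR's test in the F lines and crosses did not. Higher genes of Lot 6 M lie on both sides of 0 in Lot 6 F, 65 above and 90 below.

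At the edge of the rule, Fis1, a mitochondrial fission gene, was the chosen gene with the smallest gap, at 348, 346 and 348 CPM in Lot 6 M against 355 to 515 CPM in the other M lines. App, the amyloid precursor protein gene, was the nearest gene not chosen, at 7.1, 13.3 and 10.8 CPM in Lot 6 M against 13.3 to 58.8 CPM, where 1 library reached the range of the others. App had the wider gap of the line means, 0.69 against 0.11 for Fis1, so the rule favours genes with little spread between libraries. Of the chosen genes, 151 of the 161 higher and 83 of the 83 lower also passed the filter on low counts when Lot 6 M was left out of it.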

How the data were processed

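BRB-seq libraries of polyadenylated RNA were assigned to lines by lot and sex, as the labels give them. Per the labels, the authors deposited 1 table of raw counts by Ensembl gene. The GRCm38 genome, Subread 2.0.2, STAR 2.7.6a and cutadapt 2.10 are named in the submitters' processing notes. Whether molecular identifiers were collapsed is not given in the sources used here, so floors cover counting error only. Of 46078 genes, 45229 matched GENCODE release M21, and 849 did not.

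Counts were filtered with edgeR's filterByExpr and scaled by TMM, separately for the M and F lines, and log2 CPM used a prior count of 2. Lot 6 F was tested against the equal-weight mean of the other F lines with edgeR 4.0.16 (limma 3.58.1, R 4.3.3), by the quasi-likelihood test with Benjamini-Hochberg adjustment over all genes; DESeq2 1.42.0 was an alternative. Tables and plots were made with matplotlib 3.10.9, numpy 2.4.6 and pandas 2.3.3 in Python 3.11.15. The methods were tested on simulated data.

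The genes named were the 12 protein-coding genes of widest gap in each direction at a mean log2 CPM of 3 or more, up to 3 chosen members of each gene list at a mean log2 CPM of 2 or more, Nf1, Trp53 and the genes at the edge of the rule; values of further list members and genes were added after their values were seen, and 1 gene taken by this rule is not reported here. The members and lists were chosen with earlier results of these data known. Alternatives were other scaling, filters and prior counts, thinned counts, a replicate block, and leaving out libraries or lines.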

Additional observations from a re-analysis of the deposited data

Results flagged for a closer look

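Among the named genes, 6 of 114 groups of 4 libraries had a library far from the other 3 of its line; chance gives about 1 in 20 such groups. None of these libraries belonged to Lot 6 M, whose 3 libraries are too few for this check. Crabp1 had 762 CPM in Lot 11 M replicate 3, against 386 to 443 CPM in that line's other libraries. Ak1 had 26.5 CPM in Lot 7 M replicate 3, against 14.7 to 15.6 CPM. Letmd1 had 17.8 CPM in Lot 7 M replicate 1, against 9.75 to 11.0 CPM. Thbs1 had 320 CPM in Lot 8 M replicate 4, against 230 to 237 CPM. Gtse1 had 26.5 CPM in Lot 11 M replicate 1, against 16.9 to 18.5 CPM. App had 21.1 CPM in Lot 11 M replicate 4, against 16.8 to 17.2 CPM.

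For 2 named genes every library of Lot 6 M lay on one side of the other M lines and every library of Lot 6 F on the other side of the other F lines. Crabp1 differed by 2.27 in Lot 6 M and by -2.92 in Lot 6 F, and Prdx6 by 0.38 and by -1.63, as log2 CPM differences from the mean of the other 4 lines of the same sex. The difference between the sexes was not tested.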

How the results depend on the processing

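The rule that every Lot 6 M library lie outside gave 161 higher and 83 lower genes. With library totals in place of TMM it gave 116 and 131, where the median difference over genes at a mean log2 CPM of 3 or more was -0.07 in place of 0.02, and 105 of the 161 and 78 of the 83 were kept. Without Lot 8 M it gave 253 and 248, without Lot 12 M 306 and 141, and without Lot 7 M 137 lower genes, since fewer libraries then have to be cleared. A gap of at least 1 left 35 and 34. With 1 library left out at a time the counts ranged from 164 to 384 higher and 84 to 243 lower. Thinned to the shallowest library, 134 and 62 of the chosen genes were kept, and 0 took the opposite direction. By line mean, the counts of 2072 and 2357 became 3515 higher without a filter beyond 1 count and 65 and 116 with a gap of at least 1, and ranged from 1985 to 2492 and from 2254 to 2849 with 1 library left out. For line sums, DESeq2 gave 10 and 11 where edgeR gave 0. EdgeR on libraries gave 286 to 584 higher and 142 to 368 lower with 1 library left out, lowest without Lot 6 M replicate 2 (286 and 159) and replicate 1 (291 and 142), and in Lot 6 F 1207 to 1777 and 1034 to 1585. The low genes shared by both Lot 6 lines, 5, became 11 with library totals and 10 without the replicate 4 libraries. Over all alternatives, 12 to 17 p53 targets and 10 to 16 glutathione and peroxiredoxin genes had the highest line mean in Lot 6 M. The median differences ranged from 0.23 to 0.38 on chromosome 10, from 0.20 to 0.37 on chromosome 15 and from -0.29 to -0.15 on chromosome 8.

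Replicate numbers did not meet the bar for pairing, a correlation over 0.1 in every pair: residual correlations of Lot 6 M with same-numbered libraries ranged from -0.114 to 0.0851, with 0 of 12 pairs over 0.1, and over all M lines 7 of 33 same-numbered and 9 of 96 other pairs were. Replicate 4, which Lot 6 M lacks, had the lowest mitochondrial share in each M line of lots 7, 8 and 11, at 0.251 to 0.336%. Without these libraries the rule gave 181 higher and 119 lower genes. With a replicate block edgeR called 509 and 318 genes in the M lines and 1726 and 1478 in the F lines.

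For the named genes, 1125 of 1140 recomputed differences moved by less than 1 SD of the other 4 line means. Trp53, inside the range, changed sign with library totals (-0.024) and without Lot 12 M (-0.078). Nf1 ranged from -0.089 without Lot 6 M replicate 2 to 1.08 without replicate 3. The cause was not tested. Genes under a few CPM, such as Nf1, Jak2 and Eda2r, rest on few counts at this depth.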
